A study of Mus musculus with 24 samples.

Results

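Glutathione S-transferases were followed here through 10 genes of 4 cytosolic classes in mouse liver: Gsta1, Gsta2, Gsta3 and Gsta4 of the alpha class, Gstm1, Gstm2, Gstm3 and Gstm4 of the mu class, Gstp1 of the pi class and Gstt1 of the theta class. They were chosen by symbol, with earlier results of these data known, and 10 of 10 were found among the 24015 gene symbols of the count table. The livers came from female B6C3F1 mice, bought at 5 to 6 weeks of age, that were gavaged for 21 days with furan at 8 mg/kg/day in corn oil or with corn oil only, and were collected 4 hours after the last dose. Each of the 8 livers gave 3 pieces, so that the 6 groups of 4 libraries were furan and control liver that was fresh frozen, fixed in formalin for 18 hours or fixed in formalin for 3 weeks. The furan animals carry the numbers 41 to 44 and the controls the numbers 2, 3, 4 and 6 in all 3 preservations. RNA from frozen and fixed pieces was extracted with different kits, and 1 section was used after 18 hours of formalin but 2 after 3 weeks, so preservation, kit, input and the piece of liver cannot be told apart.

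Glutathione S-transferases join the thiol of glutathione to electrophilic compounds, which can then be exported from the hepatocyte and broken down to mercapturic acids. Liver is rich in these enzymes, and several of their genes are known targets of NRF2 (gene Nfe2l2), a transcription factor released from its inhibitor Keap1 by electrophiles. Furan is oxidised by the cytochrome P450 Cyp2e1 to a reactive dialdehyde that binds glutathione and proteins. The comparisons below ask which transferase genes differed between furan and control liver, and whether the difference was also measured in fixed tissue.

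Libraries held 37978435 to 49326373 counts in frozen liver, 22889146 to 28054631 after 18 h formalin and 5560002 to 11019297 after 3 weeks formalin. A floor of 3 counts thus corresponded to 0.0698 to 0.0950 CPM (counts scaled to library size) in frozen liver and to 0.227 to 0.463 CPM after 3 weeks formalin. All 6 hepatocyte markers (Alb, Apoa1, Ttr, Cps1, Tat and Fgb) were detected, with summed levels of 166200 to 187400 CPM in furan and 156300 to 177300 CPM in control frozen liver. The frozen library of control animal 3 stood apart: its genes lay a median of 0.458 log2 units from the median of its group, against 0.162 to 0.216 in the other 7 frozen libraries. For some single genes, results in frozen liver are therefore also given without it, where edgeR called 1148 genes in place of 392. Paralog sums, shares, list counts, list medians and marker sums in frozen liver keep it.

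Per kilobase of transcript the family spanned a wide range of levels in control frozen liver. Gsta3, the main alpha-class transferase of mouse liver, stood highest at 2100 ± 269 CPM per kilobase (SD, n = 4). Gstm1, a mu-class enzyme with a broad range of substrates, followed at 471 ± 115 and Gstt1, which acts on small halogenated compounds, at 236 ± 35.7 CPM per kilobase. Gsta4, which conjugates the lipid peroxidation product hydroxynonenal, at 79.9 ± 4.94, and Gstp1, the only pi-class gene among the 10, at 79.1 ± 10.2 CPM per kilobase overlapped and could not be ordered. The remaining mu-class genes lay lower, Gstm3 at 30.0 ± 10.5, Gstm2 at 20.8 ± 4.06 and Gstm4 at 18.4 ± 3.39 CPM per kilobase, and neighbours in this order overlapped. Gsta2 at 3.66 ± 1.20 and Gsta1 at 0.657 ± 0.196 CPM per kilobase closed the order, each clear of the gene above it. In furan frozen liver Gstp1, at 124 ± 15.6 CPM per kilobase, no longer overlapped Gsta4 at 73.0 ± 10.6, and Gsta2 at 14.9 ± 4.28 overlapped Gstm4 at 23.1 ± 5.46. Gsta1 remained lowest at 4.12 ± 1.45 CPM per kilobase. These levels take the counts as deposited. Of 50-base windows 89.7% of Gsta1, 64.2% of Gsta2 and 62.3% of Gstp1 also occurred in other genes, and 0 of Gsta3, Gsta4, Gstm4 and Gstt1. How reads matching several genes were counted is not given, so the order of genes that share windows is uncertain.

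**Figure D1:**
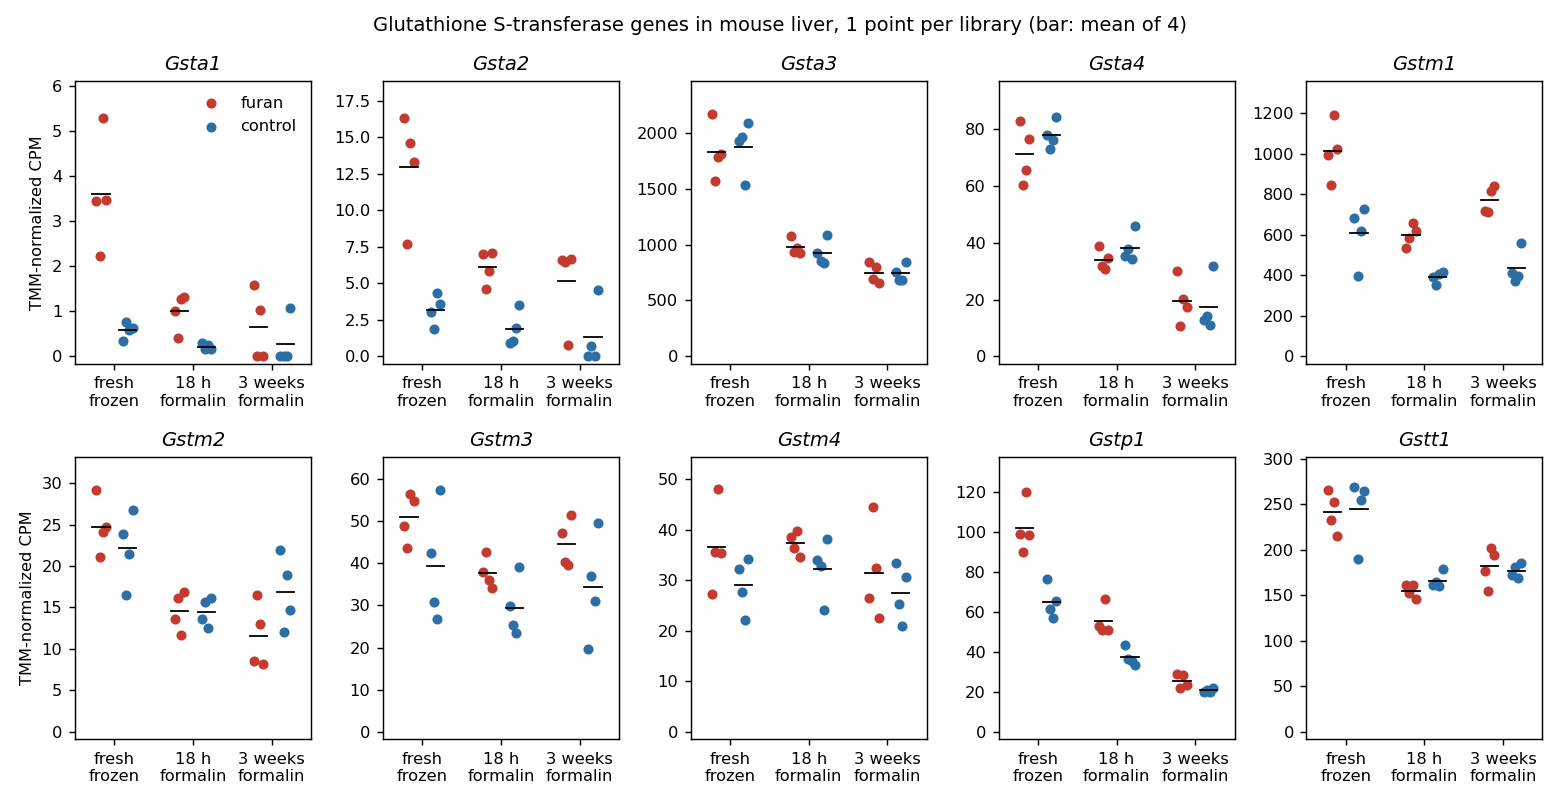
TMM-normalized CPM of the 10 genes (y axis, linear, a scale of its own in each panel) in fresh frozen liver, after 18 h and after 3 weeks of formalin (x axis), with furan libraries in red left of control libraries in blue and a bar at the mean of 4 libraries. The furan and control points separate in frozen liver for Gsta1, Gsta2, Gstm1 and Gstp1, and most genes sit lower after formalin.

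In frozen liver Gsta1, Gsta2 and Gstp1 rose with furan. Across the 10 genes edgeR's quasi-likelihood test with Benjamini-Hochberg adjustment called 3 higher at adjusted p below 0.05, beside 1.57% of all 14122 genes tested that were called higher, 1.2% that were called lower and 2.78% in either direction. No member was called lower by edgeR or DESeq2, and 0 were lower at an unadjusted p below 0.05. The median log2 fold change of the 10 genes was 0.36, beside -0.015 over all genes tested. Libraries of the groups did not overlap for 4 of the 10 genes (Gsta1, Gsta2, Gstm1 and Gstp1), in each case with furan higher, beside 7.19% of all genes with furan higher and 6.3% with furan lower. In bulk RNA, fewer cells of a type and less RNA per cell cannot be told apart, here and in all comparisons that follow.

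Gsta1 and Gsta2 encode alpha-class enzymes that are inducible in mouse liver. Gsta1 measured 3.45, 2.21, 5.28 and 3.47 CPM in furan animals 41 to 44, against 0.348, 0.760, 0.571 and 0.619 CPM in control animals 2, 3, 4 and 6. Every furan library was higher than every control library. Gsta1 averaged 3.60 ± 1.26 CPM in furan and 0.574 ± 0.171 CPM in control liver (SD, n = 4 each), a 6.26-fold difference (log2 2.65 ± 0.34 SE, edgeR adjusted p = 0.00258). Gsta2 measured 16.3, 7.73, 14.6 and 13.3 CPM in the furan animals, against 3.02, 1.84, 4.32 and 3.57 CPM in the controls. Again the groups did not overlap, and furan animal 42 was the lowest furan animal for both genes. The Gsta2 difference was log2 2.02 ± 0.29 (edgeR adjusted p = 0.00497). Both genes were called whichever of the 8 frozen libraries was left out, with log2 values of 2.40 to 2.82 for Gsta1 and 1.83 to 2.21 for Gsta2. Without control animal 3 the values were 2.80 and 1.83 (edgeR adjusted p = 1.02e-04 and 8.12e-04). In 1 fit over all 24 libraries, which shares the spread of the fixed libraries, neither passed (edgeR adjusted p = 0.165 for Gsta1 and 0.130 for Gsta2), with log2 values of 2.64 and 2.03.

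The counts of Gsta1 and Gsta2 are hard to separate, because their transcripts are nearly alike. In GENCODE transcripts of GRCm38, a later build than the mm9 used for the counts, their coding sequences were 97.5% identical and the first 196 coding bases did not differ. Of all 50-base windows of the Gsta1 transcripts, 89.7% also occurred in a transcript of another gene, most often Gm3776 (82.9%). For Gsta2 the share was 64.2%, most often with Gsta1 (44.8%). The stretch of coding bases 578 to 667, counted from 1 at the A of the start codon, shows where reads can tell the genes apart, with the 6 differing bases in capitals.
Gsta1: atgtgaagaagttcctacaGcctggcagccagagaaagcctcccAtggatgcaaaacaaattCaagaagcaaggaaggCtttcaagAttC
Gsta2: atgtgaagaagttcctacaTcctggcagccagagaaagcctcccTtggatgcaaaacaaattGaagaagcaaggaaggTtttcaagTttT
How the authors treated reads that match several genes is not given in the sources used here, so the split between the 2 genes is uncertain. Summed as 1 feature, Gsta1 and Gsta2 averaged 16.6 ± 4.67 CPM in furan and 3.76 ± 0.993 CPM in control frozen liver (log2 2.14 ± 0.26, edgeR adjusted p = 0.00190). Gm3776 had 91, 36, 142 and 145 counts in the furan animals, against 4, 0, 1 and 9 counts in controls 2, 3, 4 and 6. Gm10639, which also shares windows with Gsta2, had 30, 5, 38 and 36 counts in furan and 1, 1, 2 and 5 counts in control liver. With these added, a sum chosen after the values were seen, the 4 genes together averaged 20.0 ± 6.22 CPM in furan and 3.92 ± 1.06 CPM in control liver (log2 2.35 ± 0.28, edgeR adjusted p = 0.00179).

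Promoters are shown for Gsta1 and Gsta2 because both counts were higher with furan in frozen liver, though the split of reads between them is uncertain. The promoters were taken from RefSeq on GRCm38.p6 and aligned to each other over 231 bases just before the transcript start. The Gsta1 window is chr9:78230438-78230668 on the plus strand and ends at the transcript start. The Gsta2 window is chr9:78347151-78347381 on the minus strand and ends 5 bases before it. Capitals mark bases that differ between the aligned windows or have no partner in the other.
Gsta1: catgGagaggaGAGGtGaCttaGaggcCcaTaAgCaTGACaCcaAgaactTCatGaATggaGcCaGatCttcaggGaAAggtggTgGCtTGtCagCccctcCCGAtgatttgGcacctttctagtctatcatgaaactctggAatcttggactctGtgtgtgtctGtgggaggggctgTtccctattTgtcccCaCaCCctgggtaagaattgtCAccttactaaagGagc
Gsta2: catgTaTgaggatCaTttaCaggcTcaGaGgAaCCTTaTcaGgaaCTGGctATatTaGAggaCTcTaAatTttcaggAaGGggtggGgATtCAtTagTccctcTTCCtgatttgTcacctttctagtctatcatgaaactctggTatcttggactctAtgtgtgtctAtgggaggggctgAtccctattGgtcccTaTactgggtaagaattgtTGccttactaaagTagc
The windows were identical at 177 of 237 alignment columns (74.7%), less than in the coding sequence. Promoters of 9 of the 10 genes were matched in the RefSeq table, and 2 motifs were searched in the 250 bases before each start on both strands: the core of the antioxidant response element bound by NRF2 with small Maf proteins (TGACNNNGC) and the AP-1 site (TGAGTCA). The response element core occurred in 10.2% and the AP-1 site in 4.46% of all 32851 promoters of the table. Among the matched genes TGACNNNGC was found only for Gsta3, as TGACATTGC 121 bases before the start. TGAGTCA was found only for Gstp1. There it is followed by GC, so these letters differ from TGACNNNGC only in the G after TGA. Cores with G at that base were not searched.

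Gstp1, a pi-class enzyme that acts on small electrophiles such as acrolein, differed less than the alpha pair but without overlap. It measured 99.0, 89.7, 119.9 and 98.5 CPM in furan animals 41 to 44, against 76.3, 61.3, 56.8 and 65.3 CPM in control animals 2, 3, 4 and 6. Its lowest furan library lay above its highest control library. The means were 101.8 ± 12.8 CPM in furan and 64.9 ± 8.33 CPM in control frozen liver (log2 0.65 ± 0.13, edgeR adjusted p = 0.0238). The call held without furan animal 42 and without control animals 2 or 3 (edgeR adjusted p = 0.00342 without control 3), and was lost without any of the other 5 libraries, with log2 values of 0.56 to 0.74 and edgeR adjusted p of at most 0.0954 over the 8 fits. Gstp2, another pi-class gene, shared 62.3% of the 50-base windows of Gstp1, and their coding sequences were 98.1% identical. Gstp2 itself had 12, 18, 19 and 45 counts in furan and 2, 5, 5 and 5 counts in control frozen liver. The Gstp1 and Gstp2 counts together gave log2 0.66 ± 0.13 (edgeR adjusted p = 0.0220). The promoter of Gstp1 is shown for the AP-1 match, 74 bases before the transcript start, in chr19:4037913-4038022 on the minus strand of GRCm38.p6, with the matched letters in capitals.
Gstp1: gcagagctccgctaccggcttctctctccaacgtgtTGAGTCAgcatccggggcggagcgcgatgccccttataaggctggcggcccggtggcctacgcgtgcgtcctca

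Gstm1 was higher in all 4 furan livers, yet did not pass the threshold in frozen tissue. It measured 992.1, 845.6, 1194 and 1026 CPM in furan animals 41 to 44, against 684.5, 396.0, 617.9 and 728.2 CPM in control animals 2, 3, 4 and 6. The groups did not overlap, and control animal 3 was the lowest library. Gstm1 averaged 1015 ± 143 CPM in furan and 607 ± 148 CPM in control liver (log2 0.74 ± 0.18, edgeR adjusted p = 0.0591). Without control animal 3 the difference was smaller but passed (log2 0.59, edgeR adjusted p = 0.00601). It also passed with DESeq2 (adjusted p = 0.00613), with no filter on low counts (edgeR adjusted p = 0.0427) and in the fit over all 24 libraries (edgeR adjusted p = 0.00146). Without any of the other 7 libraries it did not pass (edgeR adjusted p = 0.0632 to 0.182).

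The other mu-class genes did not pass in frozen liver, nor did Gsta3, Gsta4 and Gstt1. Gstm3 averaged 50.9 ± 5.78 CPM in furan and 39.3 ± 13.7 CPM in control liver (log2 0.38 ± 0.21, edgeR adjusted p = 0.363). Its control animals ranged widely, with 42.4, 30.7, 26.9 and 57.4 CPM in animals 2, 3, 4 and 6. Gstm4 averaged 36.6 ± 8.66 CPM in furan and 29.1 ± 5.37 CPM in control, and Gstm2 24.8 ± 3.32 CPM in furan and 22.1 ± 4.32 CPM in control. Gsta3, the most abundant member, averaged 1832 ± 246 CPM in furan and 1877 ± 240 CPM in control liver (log2 -0.032 ± 0.13, edgeR adjusted p = 0.923). Gsta4 averaged 71.4 ± 10.3 CPM in furan and 78.0 ± 4.83 CPM in control, and Gstt1 241.9 ± 21.8 CPM in furan and 244.8 ± 37.0 CPM in control. For all 6 of these genes furan and control libraries overlapped. Mu-class transcripts share sequence as well, 23.1% of the 50-base windows of Gstm1, 28.8% of Gstm3 and 9.36% of Gstm2, while Gsta3, Gsta4, Gstm4 and Gstt1 shared none. Summed over Gstm1 to Gstm7, frozen liver gave log2 0.58 ± 0.17 (edgeR adjusted p = 0.0944).

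After 18 h formalin the same direction was measured in fixed pieces of the same livers, and 4 of the 10 genes were called higher (Gsta1, Gsta2, Gstm1 and Gstp1), beside 7.82% of all 14204 genes tested that were called higher and 7.72% that were called lower (15.5% in all). No member was called lower by edgeR or DESeq2, and 0 were lower at an unadjusted p below 0.05. The groups did not overlap for these 4 genes, beside 9.59% of all genes with furan higher and 10.4% with furan lower. The member median was log2 0.295, beside -0.0025 over all genes.

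Gsta1 lay close to the limit of counting in these libraries. It had 29, 10, 33 and 35 counts in furan animals 41 to 44, or 1.00, 0.397, 1.27 and 1.32 CPM, against 7, 4, 6 and 4 counts, or 0.292, 0.152, 0.247 and 0.168 CPM, in control animals 2, 3, 4 and 6. Its difference was log2 2.21 ± 0.55 (edgeR adjusted p = 0.0105). Gsta2 measured 6.99, 4.61, 5.82 and 7.05 CPM in the furan animals, against 0.876, 1.07, 1.94 and 3.48 CPM in the controls (log2 1.75 ± 0.36, edgeR adjusted p = 0.00580). Furan animals were higher throughout, and control animal 6 came nearest to them. As in frozen liver, both calls were lost in the fit over all 24 libraries (edgeR adjusted p = 0.445 and 0.332).

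Gstm1 and Gstp1 rose after 18 h formalin, with a smaller error than in frozen liver. Gstm1 had 536.0, 585.1, 659.5 and 619.0 CPM in furan animals 41 to 44, against 390.7, 353.7, 407.4 and 416.8 CPM in control animals 2, 3, 4 and 6. Its difference was log2 0.62 ± 0.07 (edgeR adjusted p = 2.74e-05). The library of control animal 3 did not stand apart here, with a median distance of 0.142 log2 units from its group. Gstp1 had 52.8, 50.8, 66.4 and 50.7 CPM in the furan animals, against 43.5, 36.6, 35.5 and 33.3 CPM in the controls (log2 0.58 ± 0.10, edgeR adjusted p = 9.52e-04). All 4 genes were called whichever of the 8 libraries was left out. The sum over Gstm1 to Gstm7 rose by log2 0.47 ± 0.07 (edgeR adjusted p = 1.99e-04). Gstm3 averaged 37.7 ± 3.75 CPM in furan and 29.4 ± 6.90 CPM in control (log2 0.37 ± 0.14, edgeR adjusted p = 0.111), and passed only without control animal 6 (edgeR adjusted p = 0.00222). The other 5 genes had log2 values between -0.16 for Gsta4 and 0.22 for Gstm4, and none passed.

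After 3 weeks formalin Gstm1 was the only member called, 1 of 9 tested, beside 1.07% of all 12983 genes tested that were called higher and 1.51% that were called lower, or 2.58% in either direction. It had 719.5, 713.1, 815.1 and 842.7 CPM in furan animals 41 to 44, against 410.4, 371.7, 394.5 and 560.4 CPM in control animals 2, 3, 4 and 6. The groups were well apart, with the lowest furan library above the highest control library. Gstm1 averaged 773 ± 66.0 CPM in furan and 434 ± 85.6 CPM in control tissue (log2 0.85 ± 0.11, edgeR adjusted p = 2.08e-05), and it was called in every fit that left out 1 library. Gstp1 was also without overlap, with 28.9, 21.8, 28.3 and 23.6 CPM in furan, against 20.1, 20.9, 20.2 and 21.7 CPM in control tissue. Furan animal 42 and control animal 6 were nearly level, and the test did not pass (log2 0.32 ± 0.25, edgeR adjusted p = 0.702). Non-overlap held for 3.88% of all genes with furan higher and for 4.8% with furan lower. No member was called lower by edgeR or DESeq2, and 0 were lower at an unadjusted p below 0.05.

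Neither Gsta1 nor Gsta2 was called after 3 weeks formalin. Gsta1 did not pass the filter on low counts, with 18, 0, 11 and 0 counts in furan animals 41 to 44, against 0, 0, 0 and 10 counts in control animals 2, 3, 4 and 6. Gsta2 had 75, 42, 8 and 88 counts in the furan animals, or 6.62, 6.49, 0.749 and 6.65 CPM, against 0, 8, 0 and 42 counts, or 0, 0.667, 0 and 4.51 CPM, in the controls. Furan animal 43 and control animal 6 lay apart from their groups, and the groups overlapped through them. The log2 difference of 1.99 was as large as in frozen liver, but its SE was 1.18 (edgeR adjusted p = 0.549). The remaining 6 genes had log2 values from -0.53 for Gstm2 to 0.40 for Gstm3, and none passed. Gstm2 measured 8.56, 16.5, 13.0 and 8.16 CPM in furan animals, against 21.9, 12.1, 18.9 and 14.7 CPM in controls (edgeR adjusted p = 0.588).

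**Figure D2:**
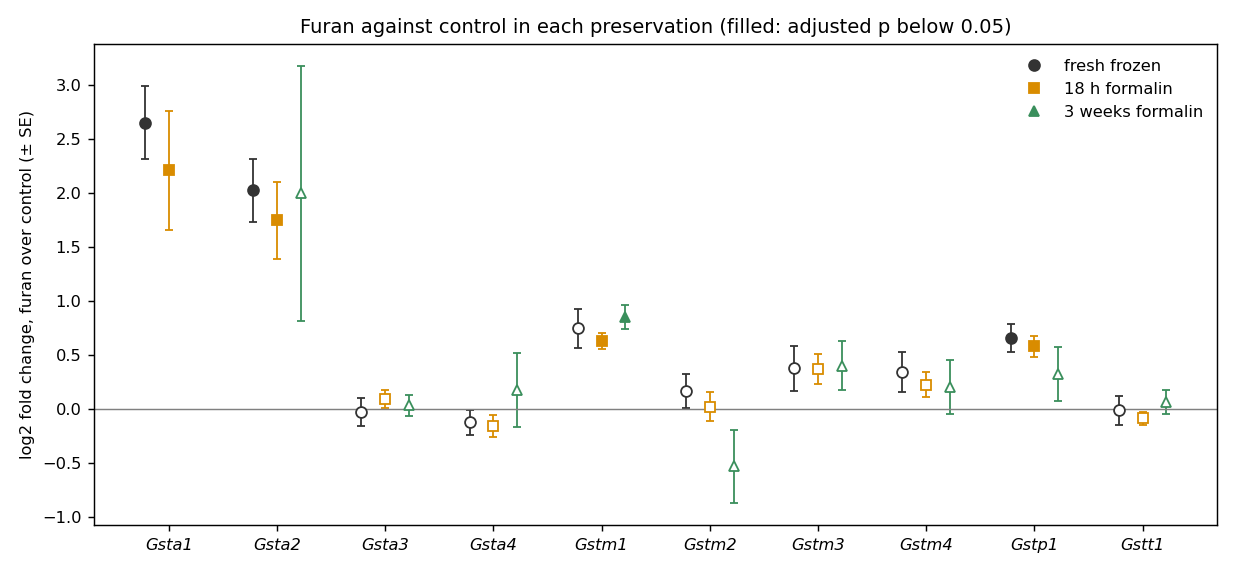
Log2 fold change of furan over control (y axis, ± SE) for each gene (x axis) in fresh frozen liver (circles), after 18 h formalin (squares) and after 3 weeks formalin (triangles), filled where the edgeR adjusted p was below 0.05. Gsta1 and Gsta2 lie between 1.75 and 2.65, Gstm1 and Gstp1 between 0.32 and 0.85, and Gsta1 has no value after 3 weeks.

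The difference between preservations was tested directly as the furan effect after formalin minus that in frozen liver. For 18 h formalin 0 of the 10 members passed in edgeR and 0 in DESeq2, with 0 at an unadjusted p below 0.05. Over all 14901 genes tested 0% passed in edgeR (20 genes at an unadjusted p below 0.05), and DESeq2 called 1. The 95% intervals were narrower for the abundant genes, -0.52 to 0.26 log2 for Gstm1, -0.44 to 0.28 for Gstp1, -0.20 to 0.42 for Gsta3 and -0.37 to 0.21 for Gstt1. They were wide for the sparse pair, -3.25 to 2.35 for Gsta1 and -2.21 to 1.63 for Gsta2. Beside frozen furan effects of log2 0.74 for Gstm1 and 0.65 for Gstp1, their intervals still allow a much smaller effect after formalin. The lack of a call thus does not show equal effects. For 3 weeks formalin 0 members passed in edgeR and 0 in DESeq2, beside 0.0268% of all genes in edgeR (0.0134% higher and 0.0134% lower), and 1 member was at an unadjusted p below 0.05. That member was Gstm2, whose furan effect after 3 weeks formalin minus that in frozen liver was log2 -0.72 (95% interval -1.33 to -0.11, edgeR adjusted p = 0.485). The interval of Gstm1 was -0.30 to 0.48 and that of Gsta2 -2.29 to 2.23. The fixed and frozen pieces come from the same animals and both differences share the frozen libraries, so the preservations are not independent repeats.

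Gstm1 held a larger part of the family per kilobase in furan than in control liver, a difference of shares that was not tested. In frozen liver Gstm1 held 23.4 ± 2.51% of the sum in furan and 15.5 ± 3.31% in control liver (SD, n = 4 each), and Gsta3 60.7 ± 3.03% in furan and 69.1 ± 4.74% in control. After 3 weeks formalin Gstm1 held 34.6 ± 3.16% in furan and 23.2 ± 1.73% in control tissue, and Gsta3 48.2 ± 3.56% in furan and 57.6 ± 1.56% in control. Shares of Gstm1 in furan and control libraries did not overlap in any preservation. Those of Gsta3 overlapped after 18 h formalin, where they ran from 55.9 to 61.7% in furan and from 61.0 to 64.9% in control tissue, and not in the other preservations. In frozen liver the Gsta3 shares nearly met, at most 64.45% in furan and at least 64.75% in control. Control animal 3 was low there for Gstm1. Of the summed CPM not scaled to length, Gstm1 held 14.4% in that library and 21.7 to 23.6% in the other frozen controls. Shares of 1 sum are tied to each other, so a larger share of Gstm1 lowers that of Gsta3. Gsta1 and Gsta2 together remained a small part of the sum in every group, as counted. Shares of genes with shared windows depend on how reads matching several genes were treated, which is not given.

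**Figure D3:**
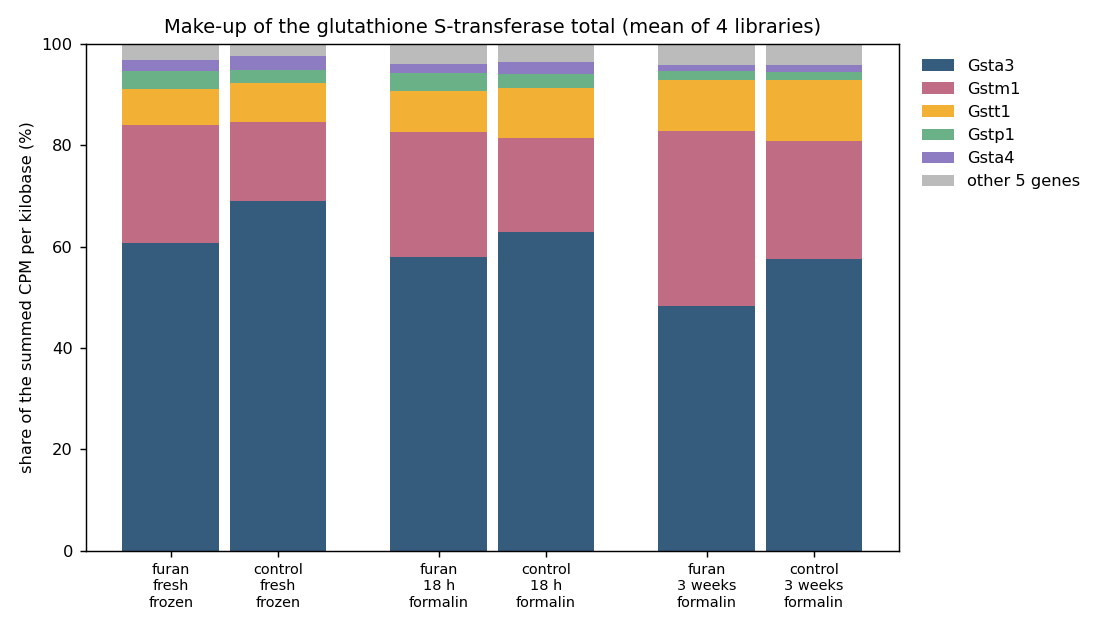
Mean share of each gene in the summed CPM per kilobase of the 10 genes (y axis, percent, stacked to 100) in the 6 groups (x axis), furan left of control in each preservation. The Gstm1 part is larger in furan than in control liver in each preservation, and larger after 3 weeks formalin than in frozen liver.

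Most of the family was lower in fixed than in frozen pieces of the same livers. After 18 h formalin 7 of the 10 genes were called lower than in frozen liver, beside 18.7% of all 14901 genes tested that were called lower and 16.3% that were called higher (35.1% in all). After 3 weeks formalin 8 of the 10 were called lower, beside 29.4% of all genes called lower and 25.5% called higher (55% in all). The member medians were log2 -0.77 and -1.03, beside 0.021 and -0.036 over all genes. Both comparisons use the same frozen libraries. Gstp1 measured 46.2 ± 11.2 CPM after 18 h formalin and 83.3 ± 22.1 CPM in frozen liver (SD, n = 8 each), and it fell by 0.84 on the log2 scale (edgeR adjusted p = 7.85e-09). After 3 weeks formalin it measured 23.2 ± 3.51 CPM and fell by 1.82 against frozen liver (edgeR adjusted p = 2.10e-16). Gsta4 measured 36.2 ± 4.75 CPM after 18 h and 18.5 ± 8.28 CPM after 3 weeks, against 74.7 ± 8.27 CPM in frozen liver (log2 -1.05 and -2.01). Gsta3 measured 950.4 ± 91.6 CPM after 18 h and 745 ± 75.6 CPM after 3 weeks, against 1854 ± 226 CPM in frozen liver (log2 -0.96 and -1.32).

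The differences of mu- and theta-class genes were smaller in size, and how genes differed among themselves was not tested. Gstm1 measured 496 ± 118 CPM after 18 h and 603 ± 194 CPM after 3 weeks, against 811 ± 256 CPM in frozen liver (log2 -0.69 and -0.44, both called by edgeR). Gstt1 was alike, with log2 -0.60 after 18 h and -0.44 after 3 weeks. Gstm2 fell by 0.69 after 18 h and by 0.75 after 3 weeks. Gstm3 passed after 18 h only (log2 -0.43, edgeR adjusted p = 0.0269, and -0.19, edgeR adjusted p = 0.290, after 3 weeks), a call that was lost without furan animal 41, 43 or 44. Gstm4 passed in neither, with log2 0.09 ± 0.14 after 18 h and -0.15 ± 0.14 after 3 weeks. Gsta1 and Gsta2 were called lower by edgeR after 3 weeks (log2 -1.77 and -1.33, edgeR adjusted p = 0.0407 and 0.0324), and not after 18 h, where DESeq2 called Gsta1 (adjusted p = 0.0276). The 3-week call was lost for Gsta1 with DESeq2 size factors (edgeR adjusted p = 0.0504), and for Gsta2 with no filter on low counts (edgeR adjusted p = 0.0504) and in DESeq2 (adjusted p = 0.0673). Without 1 animal the 3-week calls held only when it was furan animal 41 or control animal 6 for Gsta1 and furan animal 42 or control animal 6 for Gsta2. Without control animal 6 the values were log2 -4.61 and -2.49. With the animal as a replicate block Gsta2 was also called lower after 18 h (log2 -1.09, edgeR adjusted p = 0.0445), as it was without control animal 6 (edgeR adjusted p = 0.0222). Hepatocyte markers moved in the same direction, 6 of 6 called lower in both comparisons with medians of log2 -0.84 and -1.52. Their summed level was 96160 to 112400 CPM after 18 h, 52970 to 66800 CPM after 3 weeks and 166200 to 187400 CPM in frozen furan liver, and 95110 to 102200, 62340 to 68710 and 156300 to 177300 CPM in control liver. Their part in the result was not tested.

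**Figure D4:**
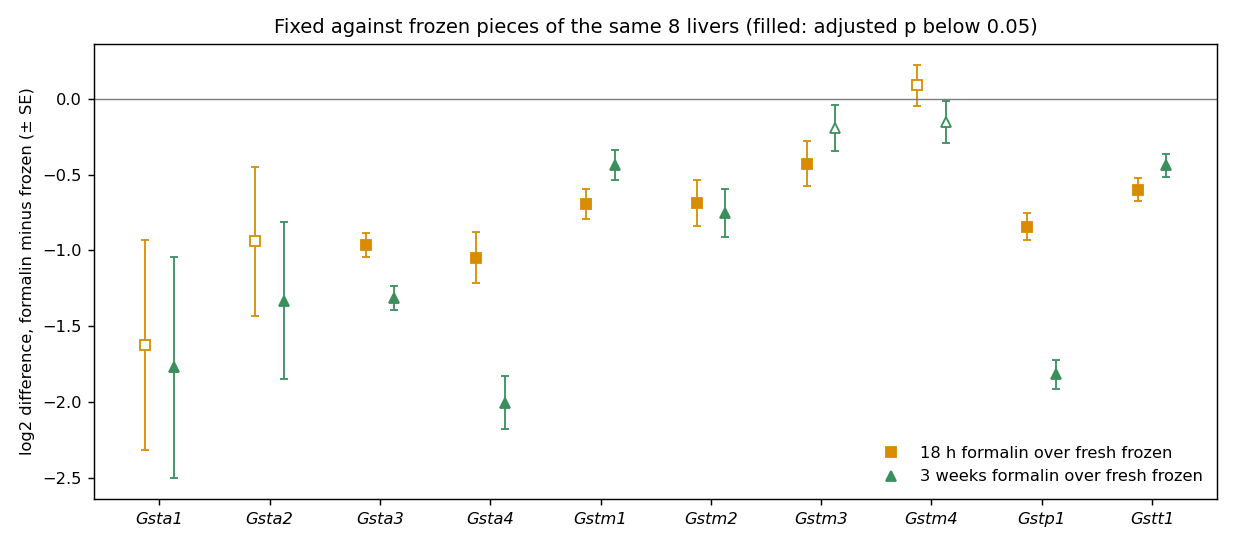
Log2 difference of formalin minus fresh frozen liver (y axis, ± SE, 8 libraries against 8) for each gene (x axis) after 18 h (squares) and 3 weeks (triangles), filled where the edgeR adjusted p was below 0.05. Gsta4 and Gstp1 are at -1.05 and -0.84 after 18 h and at -2.01 and -1.82 after 3 weeks, while Gstm3 and Gstm4 lie closest to 0.

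Beyond the 10 genes, Gstt2 was the only other glutathione transferase that edgeR called with furan when all frozen libraries were kept, and it was lower. Of 20 symbols 18 were in the table and 15 were tested in frozen liver. There 0 were called higher and 1 lower by edgeR, beside 1.57 and 1.2% of all genes. At an unadjusted p below 0.05, 3 were higher and 2 lower. DESeq2 values were read only for the 8 genes named in this paragraph, with 1 called higher and 1 lower. Gstt2, a theta-class gene, was the gene called, with 62.7, 52.5, 53.1 and 52.2 CPM in furan animals, against 73.5, 100.7, 79.5 and 83.4 CPM in controls (log2 -0.61 ± 0.12, edgeR adjusted p = 0.0266). Its call held without furan animal 41 and without control animal 2 or 3 (log2 -0.52, edgeR adjusted p = 0.00329 without control 3), and was lost without any of the other 5 libraries (edgeR adjusted p = 0.0629 to 0.114). Every furan library was lower than every control library, the reverse of the pattern of Gstp1 and unlike the theta-class member Gstt1. Gstt2 was lower after 18 h formalin too (log2 -0.43 ± 0.08, edgeR adjusted p = 0.00174) and had log2 -1.06 after 3 weeks (edgeR adjusted p = 0.0579). In the pieces fixed for 18 h, 2 of 14 tested were called higher and 3 lower, beside 7.82 and 7.72% of all genes. Gstcd (log2 0.78) and Gstt3 (log2 0.26) were the higher genes, and Gstm6 of the mu class (log2 -0.45), Gstk1, the kappa-class transferase (log2 -0.24), and Gstt2 were the lower ones. None of these 5 calls held in the fit over all 24 libraries (edgeR adjusted p = 0.154 to 0.610, Gstt2 at 0.185). Gstt3 was also lost without furan animal 41, 42 or 44 or control animal 3 or 4 (edgeR adjusted p = 0.0505 to 0.114), and Gstk1 without furan animal 42, 43 or 44 or control animal 2 or 3 (edgeR adjusted p = 0.0597 to 0.127). After 3 weeks formalin 0 of 12 tested were called in edgeR, beside 1.07% of all genes higher and 1.51% lower. At an unadjusted p below 0.05, 1 was higher and 4 were lower. Of 7 named genes with a DESeq2 value, 2 were called lower, Gstt2 and Gstz1 (both DESeq2 adjusted p = 0.043). In the fit over all 24 libraries, which called 1549 genes, edgeR called Gstt2, Gstm6 and Gstk1 lower (adjusted p = 1.48e-04, 0.00297 and 0.0147). Gstt2 also passed with no filter on low counts (edgeR adjusted p = 0.0476) and without control animal 6 (edgeR adjusted p = 0.0371). Gstp2 (log2 2.26 ± 0.57, edgeR adjusted p = 0.0627), Gstm5 (log2 0.53, edgeR adjusted p = 0.180) and Gstz1, which acts in tyrosine breakdown (log2 -0.35, edgeR adjusted p = 0.228), did not pass in frozen liver. DESeq2 did call Gstp2 higher there (adjusted p = 0.0150). Without control animal 3 edgeR also called Gstp2 (log2 2.40, adjusted p = 0.0302) and Gstcd (log2 0.69, adjusted p = 0.0282) higher. The same fit called Gstm6 lower (log2 -0.38, edgeR adjusted p = 0.0398).

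Genes for the export and breakdown of glutathione conjugates were mostly not called. Of 19 tested in frozen liver 0 were higher and 1 was lower in edgeR, beside 1.57 and 1.2% of all genes. At an unadjusted p below 0.05, 2 were higher and 2 lower. DESeq2 values were read only for the 4 genes named below, with 0 called higher and 1 lower. The median of the 19 genes was log2 -0.17. Abcc6, a hepatocyte transporter of the multidrug resistance protein family, was the gene called, at 90.3 ± 11.2 CPM in furan and 199.7 ± 96.3 CPM in control liver (log2 -1.14 ± 0.26, edgeR adjusted p = 0.0432). The call held without control animal 2 and without control animal 3 (log2 -0.75, edgeR adjusted p = 8.12e-04), and was lost without any of the other 6 libraries (edgeR adjusted p = 0.0577 to 0.153). It was lower in the fixed pieces also (log2 -1.02 after 18 h and -0.54 after 3 weeks, edgeR adjusted p = 3.43e-08 and 0.0133), the 3-week call being lost without furan animal 41 (edgeR adjusted p = 0.0696). Abcc2, the canalicular exporter of glutathione conjugates, averaged 1367 ± 90.3 CPM in furan and 1100 ± 96.3 CPM in control frozen liver (log2 0.32, edgeR adjusted p = 0.152) and was called higher after 18 h formalin (log2 0.41, edgeR adjusted p = 0.00200). Abcc4, a basolateral exporter, had log2 0.52 in frozen liver (edgeR adjusted p = 0.157) and 0.68 after 18 h formalin (edgeR adjusted p = 0.00191). Acy1, which deacetylates mercapturic acids, had log2 -0.38 in frozen liver (edgeR adjusted p = 0.229) and -0.52 after 18 h formalin (edgeR adjusted p = 6.11e-04). In the fit over all 24 libraries Abcc2 kept its 18 h call (edgeR adjusted p = 0.0352), and Abcc4 and Acy1 did not (edgeR adjusted p = 0.396 and 0.129). Of the 19 genes, 3 were called higher and 2 lower after 18 h formalin, beside 7.82 and 7.72% of all genes. After 3 weeks 0 of 16 were called higher and 1 lower, beside 1.07 and 1.51% of all genes. At an unadjusted p below 0.05, 2 were higher and 2 lower. DESeq2 called 0 higher and 1 lower of the same 4 named genes. The fit over all 24 libraries called Abcc4 higher after 3 weeks (edgeR adjusted p = 0.0488).

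Among 10 regulators of transferase genes 1 was called higher and 1 lower in frozen liver, beside 1.57 and 1.2% of all genes. Nfe2l2, which encodes NRF2, averaged 138.5 ± 27.6 CPM in furan and 90.9 ± 5.57 CPM in control liver (log2 0.61 ± 0.14, edgeR adjusted p = 0.0436). Nr1i3, the constitutive androstane receptor, averaged 154 ± 27.3 CPM in furan and 250.7 ± 39.3 CPM in control liver (log2 -0.70 ± 0.15, edgeR adjusted p = 0.0328). The Nfe2l2 call held without furan animal 42 and without control animal 3 (log2 0.57, edgeR adjusted p = 0.0152), and was lost without any of the other 6 libraries (edgeR adjusted p = 0.0611 to 0.136). The Nr1i3 call held without furan animal 41 and without control animal 2 or 3 (log2 -0.71, edgeR adjusted p = 0.00999 without control 3), and was lost without any of the other 5 (edgeR adjusted p = 0.0793 to 0.135). Both kept their direction in fixed tissue, Nfe2l2 with log2 0.46 after 18 h and 0.57 after 3 weeks (edgeR adjusted p = 9.13e-04 and 0.0645), and Nr1i3 with log2 -0.72 and -0.80 (edgeR adjusted p = 0.00410 and 0.0104). The 3-week Nr1i3 call was lost without control animal 6 (edgeR adjusted p = 0.0537). Rxra, the partner of that receptor, and Mafk, a small Maf protein, did not pass in frozen liver (log2 -0.34 and 0.32, edgeR adjusted p = 0.196 and 0.331) and passed after 18 h formalin (log2 -0.32 and 0.54, edgeR adjusted p = 0.00152 and 0.00568). In the fit over all 24 libraries the 18 h calls of Rxra, Mafk and Nfe2l2 were lost (edgeR adjusted p = 0.0734, 0.174 and 0.124). After 3 weeks the same fit called Nfe2l2 higher and Rxra lower (edgeR adjusted p = 0.016 and 0.0275), and in frozen liver it called Rxra lower (edgeR adjusted p = 0.0480).

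Most known NRF2 targets outside the transferases rose with furan. In frozen liver 9 of 14 tested were called higher and 0 lower by edgeR, beside 1.57 and 1.2% of all genes. The median of the 14 genes was log2 0.72, and 0 were lower at an unadjusted p below 0.05. DESeq2 values were read only for the 5 named genes of this list, with 4 called higher and 0 lower. They are Srxn1, Nqo1, Ephx1, Ugdh and Abcc4, which is also in the export list above and was not called in frozen liver. In fixed tissue 13 of 15 after 18 h and 8 of 14 after 3 weeks were called higher, beside 7.82 and 1.07% of all genes, with medians of log2 0.99 and 0.90. After 3 weeks Nqo1 was not called (log2 1.09, edgeR adjusted p = 0.182), and DESeq2 called 3 of the 5 named genes higher. Srxn1, sulfiredoxin, averaged 86.7 ± 16.3 CPM in furan and 36.5 ± 2.69 CPM in control frozen liver (log2 1.25 ± 0.15, edgeR adjusted p = 0.00184). Nqo1, a quinone reductase, averaged 32.4 ± 5.02 CPM in furan and 14.0 ± 2.51 CPM in control (log2 1.22 ± 0.16, edgeR adjusted p = 0.00311), and log2 1.15 without control animal 3. Ephx1, microsomal epoxide hydrolase, averaged 693 ± 104 CPM in furan and 335 ± 12.2 CPM in control (log2 1.05 ± 0.13, edgeR adjusted p = 0.00195), and Ugdh, which makes the substrate of glucuronidation, 253 ± 39.4 CPM in furan and 126.5 ± 9.58 CPM in control (log2 1.00 ± 0.13, edgeR adjusted p = 0.00311). These 4 genes were picked for the smallest p of their list in frozen liver, which favours large differences. Theirs were larger than those of Gstm1 and Gstp1 and smaller than those of Gsta1 and Gsta2. The median of the whole list, log2 0.72, lay beside log2 0.74 for Gstm1 and 0.65 for Gstp1. The differences between genes were not tested.

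The genes whose profile over the 24 libraries was most like Gsta1, each centred within its preservation, were Fbf1, Tacc3, Mtl5, Acmsd and Spon2. The profile held the furan and control libraries, so a difference with furan in these genes follows in part from how they were picked. The tests below are given as description only. Their root mean square difference from Gsta1 was 0.919 to 1.04 log2 units, against a median of 1.497 over 11285 candidates, and Gsta1 was at 0 in 5 of the 8 libraries after 3 weeks formalin. Acmsd averaged 49.9 CPM in furan and 14.7 CPM in control frozen liver (log2 1.76, edgeR adjusted p = 2.85e-04), and Fbf1 averaged 48.8 CPM in furan and 12.1 CPM in control (log2 2.01, edgeR adjusted p = 0.0301). Mtl5 was also called in frozen liver (edgeR adjusted p = 0.0188), while Tacc3 and Spon2 were not (edgeR adjusted p = 0.174 and 0.288). In the pieces fixed for 18 h Acmsd, Mtl5 and Tacc3 were called and Fbf1 and Spon2 were not (edgeR adjusted p = 0.103 and 0.0876), and after 3 weeks none of the 5 was called by edgeR (adjusted p = 0.217 to 0.924).

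Markers of zones and of other liver cells are given beside these results. Pericentral hepatocyte markers summed to 9530 to 10490 CPM in furan and 13810 to 17210 CPM in control frozen liver, with 2 of 8 called lower by edgeR, beside 1.2% of all genes. After 18 h formalin 5 of 8 were called lower and after 3 weeks 4 of 8, beside 7.72 and 1.51%. Periportal hepatocyte markers summed to 5035 to 5785 CPM in furan and 5714 to 8385 CPM in control frozen liver, which overlapped. EdgeR called 0 of these 8, with 1 higher and 2 lower at an unadjusted p below 0.05. After 18 h formalin 2 were called higher and 1 lower, beside 7.82 and 7.72% of all genes. After 3 weeks 0 were called higher and 1 lower, beside 1.07 and 1.51%. Sinusoidal endothelial markers summed to 427 to 454 CPM in furan and 549 to 575 CPM in control frozen liver, with 1 of 6 called lower. After 18 h formalin 4 of the 6 were called lower, and after 3 weeks 0 by edgeR, with 1 lower at an unadjusted p below 0.05. Macrophage markers summed to 359 to 396 CPM in furan and 344 to 726 CPM in control frozen liver. EdgeR called no macrophage, stellate, bile duct or lymphocyte marker with furan in any preservation. After 3 weeks formalin only 3 of 6 bile duct and 3 of 6 lymphocyte markers could be tested. The lymphocyte markers summed to only 2.31 to 3.62 CPM in furan and 2.41 to 4.17 CPM in control frozen liver, so a change in them could be missed. At an unadjusted p below 0.05, 1 bile duct marker was lower after 18 h formalin and 2 macrophage markers were lower after 3 weeks. No marker of these lists was at 0 in all libraries of a frozen group, and their part in the differences of the transferase genes was not tested.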

How the data were processed

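RNA was sequenced from 24 libraries, 6 groups of 4 animals. The deposited values are raw counts per gene. The submitters' processing notes name mm9 as the build and, as tools, featureCounts 1.4.4, STAR 2.3.0 and CASAVA 1.8.2. Whether strand was used, and how reads matching several genes were counted, is not given in the sources used here, and both can move counts between near-identical genes. The values were whole, 0 pairs of columns were identical, and 4185 symbols had no count in any library.

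These counts entered edgeR 4.0.16 (R 4.3.3) with TMM normalization, the filterByExpr filter and robust quasi-likelihood tests, two-sided, with Benjamini-Hochberg adjustment over all genes tested and adjusted p below 0.05 as a call. The 4 furan livers were set against the 4 controls separately in each preservation. Preservations, and the differences of the furan effect between them, were tested in 1 fit over 6 groups. Printed CPM are TMM-normalized over all 24 libraries, so a ratio of means can differ slightly from the fitted fold change. SE is the size of the log2 value divided by the square root of F. The floor of 3 counts covers counting error only. Alternatives were DESeq2 1.42.0 size factors and test, no low-count filter, 1 fit over all 24 libraries, leaving out each library or animal, paralog sums and the animal as a replicate block. The labels give the same animal numbers in each preservation, so pieces were paired by animal. Deviations of pieces of 1 animal from their group means correlated at 0.042 to 0.455 between frozen and 18 h formalin, and at -0.011 to 0.151 between frozen and 3 weeks formalin. The scripts were tested on simulated data with 200 genes changed 2-fold. Of these, 90% were recovered in frozen liver, 97.5% after 18 h formalin and 46.5% after 3 weeks. For the furan effect after 18 h formalin minus that in frozen liver 51.5% were recovered. A missing call there or after 3 weeks thus does not show that no change was present.

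Transcript lengths, shared windows and coding sequences (longest open reading frame) came from GENCODE and promoters from RefSeq, both on GRCm38. All 10 members are named, and from each other list the 4 genes with the smallest p in frozen liver, other transferases called in any preservation, and the 5 genes most like Gsta1 with mean log2 CPM of at least 1 (prior count 2). Members and lists were chosen with earlier results of these data known. For lists other than the members, DESeq2 calls were read for the named genes only, most of which were picked by their edgeR p.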

Additional observations from a re-analysis of the deposited data

Results flagged for a closer look

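Within groups of 4 libraries, 4 values of a transferase gene lay farther from the rest of their group than Dixon's 95% critical value allows, among 59 groups examined, where chance flags about 1 in 20. Gsta2 was 0.749 CPM in furan animal 43 after 3 weeks formalin, against 6.49 to 6.65 CPM in the other furan animals. Gsta2 was 4.51 CPM in control animal 6 after 3 weeks formalin, against 0 to 0.667 CPM in the other controls. Gsta4 was 31.8 CPM in the same library, against 11.2 to 14.4 CPM in the other controls. Gstp1 was 66.4 CPM in furan animal 43 after 18 h formalin, against 50.7 to 52.8 CPM in the other furan animals.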

How the results depend on the processing

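The direction of Gsta1, Gsta2, Gstm1 and Gstp1 with furan was the same in frozen liver and after 18 h formalin under every alternative run. Without 1 library the count of genes called in frozen liver ran from 99 (without furan animal 44) to 1148 (without control animal 3), against 392 with all, and that of members from 2 to 4. After 18 h formalin the counts ran from 1582 to 2061 genes and from 4 to 5 members, and after 3 weeks from 218 (without furan animal 44) to 280 genes with 1 member. Without 1 animal the difference of the furan effect between 3 weeks formalin and frozen liver was called for 0 to 14 genes. DESeq2 called 1004 genes in frozen liver, and 1 and 166 genes for the difference of the furan effect after 18 h and 3 weeks formalin. The fit over all 24 libraries, which shares 1 estimate of the spread, called 305 genes and 2 members (Gstm1 and Gstp1) after 18 h formalin and 1549 genes after 3 weeks. With the replicate block the difference of the furan effect after 3 weeks was called for 2 genes, that of Gsta2 turned to log2 0.61 (edgeR adjusted p = 0.910), and no call of a member changed other than that of Gsta2 after 18 h formalin. The causes were not tested.

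Other changes of sign were in values not called. The difference of the furan effect for Gstm3 after 18 h formalin was log2 0.005 with DESeq2 size factors or test and 0.007 with no filter. Gstm2 after 3 weeks formalin, replaced by the sum of Gstm1 to Gstm7, had log2 0.64, since Gstm1 makes up most of that sum. Sign also turned for some genes when 1 library or animal was left out. In frozen liver log2 values ran for Gsta3 from -0.12 to 0.031 and for Gstt1 from -0.12 to 0.040. For Gstm2 after 18 h formalin log2 values ran from -0.067 to 0.10. After 3 weeks formalin log2 values ran for Gsta3 from -0.029 to 0.10, Gsta4 from -0.10 to 0.63, Gstm4 from -0.014 to 0.33 and for Gstm5 from -0.86 to 0.81. For the furan effect after 18 h formalin minus that in frozen liver log2 values ran for Gstm3 from -0.14 to 0.069, Gstm4 from -0.26 to 0.013, Gstm2 from -0.27 to 0.007 and for Gstt1 from -0.14 to 0.018. In the same comparison log2 values ran for Gsta2 from -0.50 to 0.16 and for Gsta4 from -0.078 to 0.023. For the furan effect after 3 weeks formalin minus that in frozen liver log2 values ran for Gstm3 from -0.22 to 0.16, Gsta2 from -0.59 to 2.27, Gstt1 from -0.021 to 0.18 and for Gstm1 from -0.001 to 0.18. In the same comparison log2 values ran for Gsta3 from -0.007 to 0.10 and for Gsta1 from -2.22 to 4.37.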
